A study of Bubalus bubalis with 6 samples.

Results

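Genes of protein synthesis named on a CpG island and promoter array are described here in sperm DNA of water buffalo (Bubalus bubalis). They are the genes whose names on the array begin as those of cytosolic ribosomal proteins (RPL, RPS), mitochondrial ribosomal proteins (MRPL, MRPS), initiation factors (EIF1 to EIF6) or elongation factors (EEF), with the RPS6K kinases left out. The rule reads names alone and no measured value. It gave 123 genes of the 7932 named on the array, with 243 of the 19762 named probes. DNA from frozen semen of 3 high-fertile bulls (HF2, HF3 and HF5) and 3 subfertile bulls (SF1, SF4 and SF5) was sheared and enriched for methylated fragments with an antibody to 5-methylcytosine (meDIP). The labels grade the bulls by fertility alone and name no treatment, and how fertility was scored is not stated in them. Pulled-down (IP) DNA in Cy5 and input DNA of the same bull in Cy3 were hybridised together, 1 array per bull.

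A cytosolic ribosome is built of a large and a small subunit, each a complex of ribosomal RNA and many proteins, and mitochondria hold a separate ribosome whose proteins are encoded in the nucleus. Initiation factors bring the small subunit, the initiator tRNA and the mRNA together, and elongation factors then carry tRNAs to the moving ribosome. Promoters of such housekeeping genes usually lie in CpG islands, which in most tissues carry little methylation. Mature sperm make almost no new cytosolic protein, and when the marks on these genes were laid down was not tested here.

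All values are log2(IP/input) centred on the median of each array's probes, so 0 is the typical probe of that bull and a negative value means less antibody-bound DNA than typical. Such a value ranks regions by bound DNA and is no share of methylated cytosines. A probe was tested if its input signal stood clear of background in all 6 bulls and no spot was marked as non-uniform. That left 102 probes in 64 of the 123 genes, and 8 genes (EEF1A2, EIF3B, EIF3D, MRPS12, RPL12, RPL26, RPL28 and RPS18) had the 3 tested probes needed for a gene region. Of the 64, 38 rest on 1 probe. By header dates, HF2, HF3 and SF4 were scanned in a first session and HF5, SF1 and SF5 on later dates. The later session below means any date after the first, and whether its arrays form a single batch was not tested. By header barcodes HF5 and SF5 shared a slide, while SF1 shared the other slide with HF2, HF3 and SF4. IP DNA was well above background at 37.6% to 58.6% of probes in the first session and at 76.5% to 85.2% in the later one. Since 2 of 3 high-fertile bulls but 1 of 3 subfertile bulls belong to the first session, the comparisons of tested regions, genes, probes and unnamed neighbours between the groups were also made with the session as a block. Germ-cell and imprinted genes that could check the DNA as sperm DNA were thinly covered: 2 genes unmethylated in sperm (DDX4 and TEX14) lay at -0.20 to -0.17, 4 with a paternal mark at -0.15 to 0.08 and 4 with a maternal mark at -0.74 to 0.28. PTPRC, a leukocyte gene, lay at -0.05, and the epithelial genes CDH1 and KRT8 at 0.14 to 0.56. These ranges overlapped and rest on few genes, so the purity of the sperm was not tested.

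The probes on which the results below turn are shown first, each 60 bases long, with every CpG in capitals, because the antibody can bind only where cytosines are methylated. Positions and strand are those of the files, and no genome build was found for them in the labels or headers. Members lie on chromosomes numbered 25 and 29, among others, and whether the numbers are those of buffalo chromosomes was not tested. The match of the probes to buffalo DNA was not tested either. The files name no exon, intron or UTR for a probe. EIF3B and RPS18 are shown as the member regions with the smallest unadjusted p between the groups, RPL26 as the region that was higher in every high-fertile bull, EIF2A because its probes part by scan session, and MRPS14 and MRPL16 as the highest and lowest members by level.
EIF3B, chr25:42775853-42775912: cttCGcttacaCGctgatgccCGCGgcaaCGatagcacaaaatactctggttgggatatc
EIF3B, chr25:42775958-42776017: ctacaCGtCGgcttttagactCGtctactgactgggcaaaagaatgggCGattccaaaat
EIF3B, chr25:42776383-42776442: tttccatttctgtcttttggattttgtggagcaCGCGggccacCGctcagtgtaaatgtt
RPS18, chr23:7739778-7739837: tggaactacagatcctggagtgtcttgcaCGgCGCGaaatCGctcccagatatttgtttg
RPS18, chr23:7739818-7739877: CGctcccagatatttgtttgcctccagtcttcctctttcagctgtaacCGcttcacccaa
RPS18, chr23:7739898-7739957: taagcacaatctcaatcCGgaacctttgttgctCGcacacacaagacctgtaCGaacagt
RPL26, chr19:28523065-28523124: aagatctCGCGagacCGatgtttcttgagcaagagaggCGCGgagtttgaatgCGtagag
RPL26, chr19:28523110-28523169: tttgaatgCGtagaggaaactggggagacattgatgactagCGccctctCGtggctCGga
RPL26, chr19:28523900-28523959: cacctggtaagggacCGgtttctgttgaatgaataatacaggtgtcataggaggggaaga
EIF2A, chr1:119370656-119370715: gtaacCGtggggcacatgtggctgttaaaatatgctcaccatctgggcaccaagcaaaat
EIF2A, chr1:119397935-119397994: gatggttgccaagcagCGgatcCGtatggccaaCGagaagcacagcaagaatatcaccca
MRPS14, chr16:53793776-53793835: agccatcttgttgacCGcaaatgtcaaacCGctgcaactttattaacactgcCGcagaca
MRPL16, chr15:83915390-83915449: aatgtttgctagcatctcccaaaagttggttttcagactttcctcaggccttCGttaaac

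Most of the measured translation genes lay below the array median in sperm, as most named genes did. Of the 64 members 39 had a mean below 0, with a median of -0.25, against 64.4% and a median of -0.14 over the 4286 named genes with a tested probe. The tested probes of the array had medians below 0 in every bull, because 0 is set over all probes, dim ones included. Those medians were -0.33, -0.26 and -0.26 in HF2, HF3 and SF4 and -0.01, -0.02 and -0.10 in HF5, SF1 and SF5. Lying below 0 is thus in part shared by all probes that pass the filter. The proteins of the small cytosolic subunit had 7 of 9 genes below 0 and a median of -0.36. Their median was -0.86 in HF2 and -0.97 in HF3 and between -0.52 and -0.24 in the other bulls, and in HF5 and SF4 it was not the lowest of the classes. The large cytosolic subunit (11 genes, median -0.20), the large mitochondrial subunit (16 genes, -0.24), the small mitochondrial subunit (9 genes, -0.25) and the initiation factors (13 genes, -0.24) lay close together, and the median SD of a member over the 6 bulls was 0.53. Both measured elongation genes, EEF1B2 and EEF1A2, lay above 0, at 0.49 and 0.14. So did EIF2C1 and EIF2C2 (0.35 and 0.33), earlier names of Argonaute genes, whose proteins carry small RNAs and are no initiation factors.

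Among the 3 lowest members were MRPL16 and MRPS11, proteins of the mitochondrial subunits, at -1.11 ± 0.55 (SD, n = 6 bulls) and -0.999 ± 0.66. Each rests on 1 probe whose IP signal did not clear background in HF2, HF3, HF5 or SF4, so the values of those bulls are upper bounds. EIF3B, a scaffold subunit of the initiation factor that binds the small subunit, lay at -1.02 ± 0.34, and the small-subunit proteins RPS9 and RPS18 at -0.94 ± 0.60 and -0.79 ± 0.44. MRPL16, EIF3B, RPS9 and RPS18 were below 0 in every bull. With normexp background correction MRPL16, EIF3B and MRPS11 moved to -0.35, -0.53 and -0.34. In RPS9 the 3 bulls of the first session were lowest, at -1.89 to -1.05, and those of the later one read -0.52 to -0.35.

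The highest members were MRPS14, a protein of the small mitochondrial subunit, at 0.62 ± 0.90, and EIF2A, which can bring initiator tRNA to the ribosome on some mRNAs, at 0.61 ± 0.17. MRPL9 (0.53 ± 0.91), EEF1B2 (0.49 ± 0.51), RPL27A (0.42 ± 0.48) and EIF3E (0.39 ± 0.69) followed. None of these 6 differs from its neighbour in the order by as much as its own SD over bulls. Of the 64 members, EIF2A and RPL14 were above 0 in all 6 bulls, which is 3.13% beside 3.22% of all measured genes, and 11 members were below 0 in all 6, beside 18.8% of all genes.

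The level of MRPS14 was set by HF3. Its probe read 2.38 in HF3 and -0.17, 0.31, 0.32, 0.21 and 0.65 in HF2, HF5, SF1, SF4 and SF5. The 8 tested unnamed probes that start within 1000 bp of it read 2.27 on average in HF3. In the other 5 bulls they averaged 0.20 to 0.45. Counted from the first of them, those that start at 0 to 22 bp overlap the named probe, which starts at 7 bp. Their match is thus in part the same sequence read again. The probes at 100 and 104 bp do not overlap the named one. HF3 read 1.9962 and 2.1581 there, and the other 5 bulls -0.17014 to 0.60214. At those 8 probes the input signal of HF3 was the lowest of the 6 (0.47 log2 over the array median, against 0.88 to 1.93) and its IP signal the highest (2.796, against 1.36 to 2.37). HF3 also stood above the other bulls at MRPL32, a protein of the large mitochondrial subunit, with 2.01 against -0.27 to 0.34, and at the 16 unnamed probes beside MRPL32 with 1.49 against -0.51 to 0.25. A copy-number difference or a sequence variant of that bull at these loci was not tested.

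The steady level of EIF2A was the mean of probes that disagreed. Its first probe (1 CpG) read 1.27, 1.95 and 2.12 in HF2, HF3 and SF4 of the first session and -0.02, 0.13 and -0.03 in HF5, SF1 and SF5. Its other probe (3 CpGs) read -0.35, -0.45 and -0.37 in the first session and 1.02, 1.06 and 1.01 in the later one. The sessions did not overlap at either EIF2A probe and parted in opposite directions, by -1.75 and 1.42 (later minus first). Of the 26 members with at least 2 tested probes, 10 had probes of opposite sign in this difference and 7 had probes more than 1 apart, among them RPL12, EIF2B4, EIF3E, MRPL2 and EEF1B2, which were picked out after their values were seen.

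**Figure D1:**
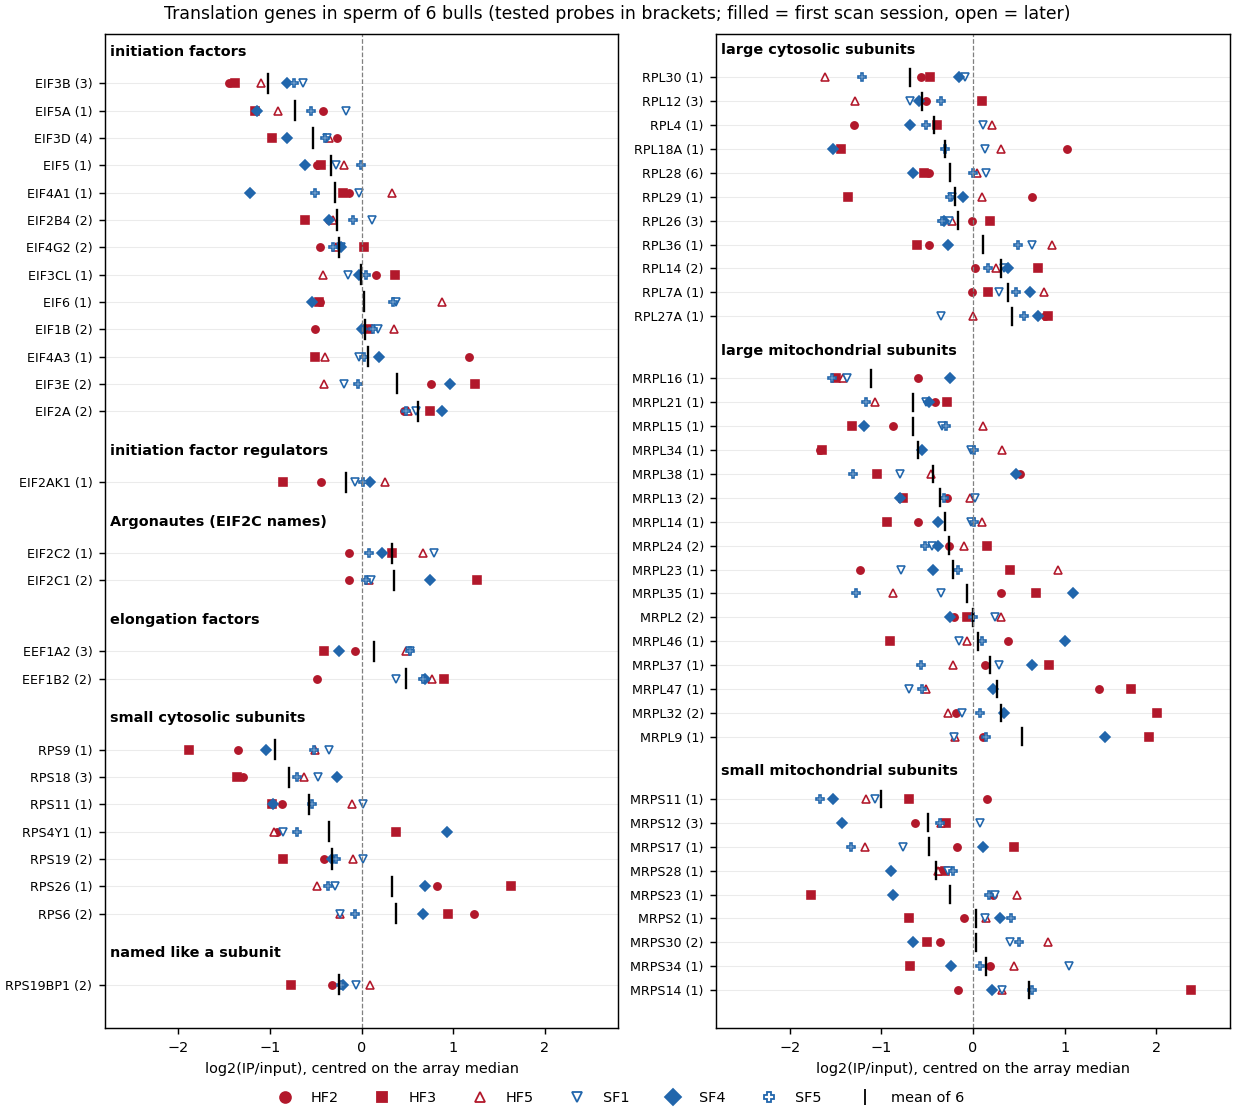
Centred log2(IP/input) of 62 of the 64 measured translation genes by class, with 1 point per bull, filled for the first scan session and open for the later one, red for high-fertile and blue for subfertile bulls, and a black bar at the mean of the 6. MRPS14 and MRPL32 show HF3 alone near 2, RPS9 shows the first session lowest, and EIF2A shows 6 close values between 0.46 and 0.88.

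Between high-fertile and subfertile bulls no translation gene passed the test. limma with Benjamini-Hochberg adjustment called 0 of the 8 member regions (0.0% of all 737 gene regions), 0 of 64 member genes (0.0% of 4286) and 0 of 102 member probes (0.0% of 110686). At an unadjusted p under 0.05 it marked 2 member regions, EIF3B and RPS18, beside 0.814% of all regions, 0 member genes beside 0.793%, and 2 member probes beside 1.84%. EIF3B and RPS18 are also among the 64 genes, with the same values, and were not marked in that fit. The smallest SE of a member was 0.21 in the region fit and 0.26 in the gene fit, as limma borrows spread from all features fitted. With the session as a block these counts were 1 region (EIF3B) beside 1.49%, 1 gene (EIF4A1, an RNA helicase of initiation, 0.82) beside 2.66%, and 7 probes beside 3.48%. The median difference of the 64 members, high-fertile minus subfertile, was -0.07, with 28 above and 36 below 0, and that of all genes -0.02. For 6 of the 8 regions the 95% interval of the difference lay within 1 log2 of 0 on either side.

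EIF3B was lower in every high-fertile bull. Its region (3 tested of 6 probes, chromosome 25) read -1.45, -1.38 and -1.09 in HF2, HF3 and HF5 and -0.64, -0.81 and -0.74 in SF1, SF4 and SF5, so the groups did not overlap. Groups did not overlap, in this direction, in 1.76% of all regions. The difference was -0.58 (SE 0.21, 95% interval -1.05 to -0.11, limma adjusted p = 0.9999, n = 3 and 3) and -0.50 with the session as a block. Without each bull in turn it was -0.68 to -0.50. Normexp background correction moved it to -0.14, and adding the 3 untested probes moved it to -0.36. The groups overlapped in both cases.

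The 3 EIF3B probes were not alike. The first, with 5 CpGs, read -2.77, -1.51 and -1.40 in high-fertile and -0.85, -0.57 and -0.66 in subfertile bulls, a difference of -1.20. The next probe differed by 0.03 with groups that overlapped, and the last by -0.56 with measured values that did not. At the first and last probes IP signal cleared background in 1 of 3 high-fertile bulls, so the other values there are upper bounds. At the last probe SF4 (-0.67) did not clear background either while HF5 (-0.79) did, so whether the groups are apart there cannot be told. The 28 unnamed tested probes beside EIF3B did not show the difference: their means were -0.75, -1.26 and -0.61 in high-fertile and -0.37, -0.81 and -0.82 in subfertile bulls, with a difference of -0.21 and -0.10 with the session as a block. The groups overlapped there, and 20 of the 28 probes lay below 0 in the difference. Over all tested probes of the array 38.6% lay above 0 in the difference, so most lay below it.

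RPS18, a protein of the small-subunit head, had the other member region with an unadjusted p under 0.05. It read -1.29, -1.36 and -0.62 in HF2, HF3 and HF5 and -0.47, -0.27 and -0.71 in SF1, SF4 and SF5. HF5 lay above SF5, so the groups overlapped. The difference was -0.61 (SE 0.26, 95% interval -1.20 to -0.01, limma adjusted p = 0.9999). It was -1.05 within the first session and -0.03 within the later one, a difference between sessions of 1.02 with an unadjusted p of 0.025 and an adjusted p of 0.994 by limma, where 3.39% of regions pass 0.05 unadjusted. With normexp it was -0.18. With arrays centred on tested probes it was -0.53. The groups were then apart by a small margin, as in 2.85% of all regions in that direction. IP signal cleared background at 4 of the 9 spots of high-fertile bulls and at 8 of the 9 of subfertile bulls.

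A repeat spot at RPS18 gave another value in SF4. The probe at the start of the region read 0.54 in SF4 and -0.24 and -0.33 in the other subfertile bulls, against -1.86, -1.86 and -0.51 in high-fertile bulls. A second spot of the same 60 bases, printed without a gene name, read -0.92 in SF4, and the difference between the groups was -1.40 at the named spot and -0.75 at the second. At the second spot the groups overlapped. The difference of the region was -0.50 without SF4 and -0.58 by the median of probes. The 35 unnamed tested probes beside RPS18 differed by -0.28 on average and 31 of them lay below 0, while with the session as a block their mean difference was -0.15. Over the 2195 genes with such probes the median difference was -0.13, and -0.01 with the session as a block. Only 22.4% of those genes lay above 0 without the block.

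**Figure D2:**
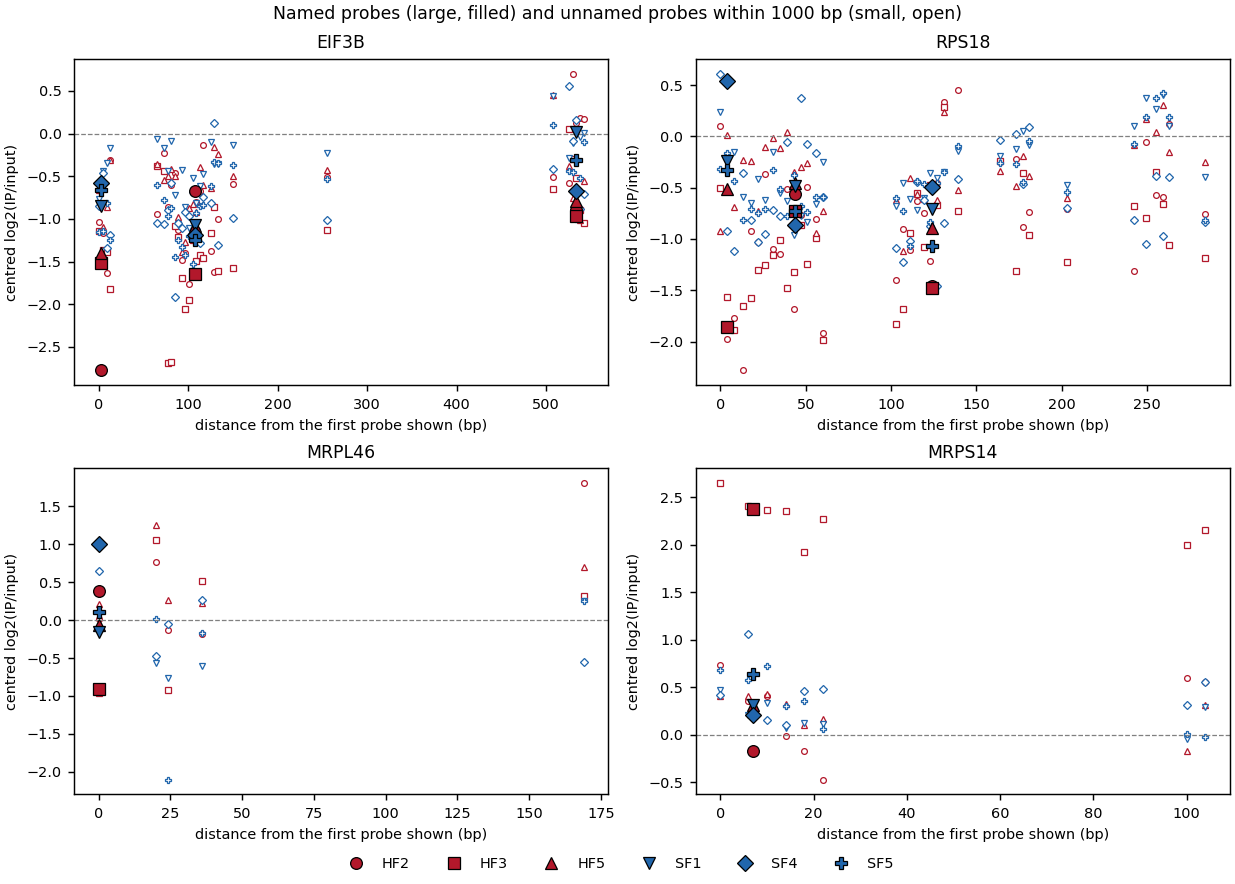
Centred log2(IP/input) against distance from the first probe shown (bp) at EIF3B, RPS18, MRPL46 and MRPS14, with 1 point per probe and bull, large and filled for named probes and small and open for unnamed probes within 1000 bp, red for high-fertile and blue for subfertile bulls. The large red points of EIF3B lie lowest at its first probe but not at its second, and HF3 lies near 2 at every MRPS14 probe.

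Repeat spots give the scatter of a single probe within an array, and not that between repeat pull-downs or arrays. Of the member probes, 21 were printed a second time without a name, and in 14 of these pairs, from 12 genes, both spots were tested. The spots of a pair differed by a median of 0.37, 0.32 and 0.29 in HF2, HF3 and SF4 of the first session and by 0.20 in each of HF5, SF1 and SF5, to at most 1.46 in SF4. The difference between the groups changed by a median of 0.35 from one spot to the other, at most 0.70, and kept its sign in 11 of 14. The 0.38 by which the RPS19 probe with 3 CpGs was lower in high-fertile bulls was 0.07 at its second spot, where the groups overlapped.

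**Figure D3:**
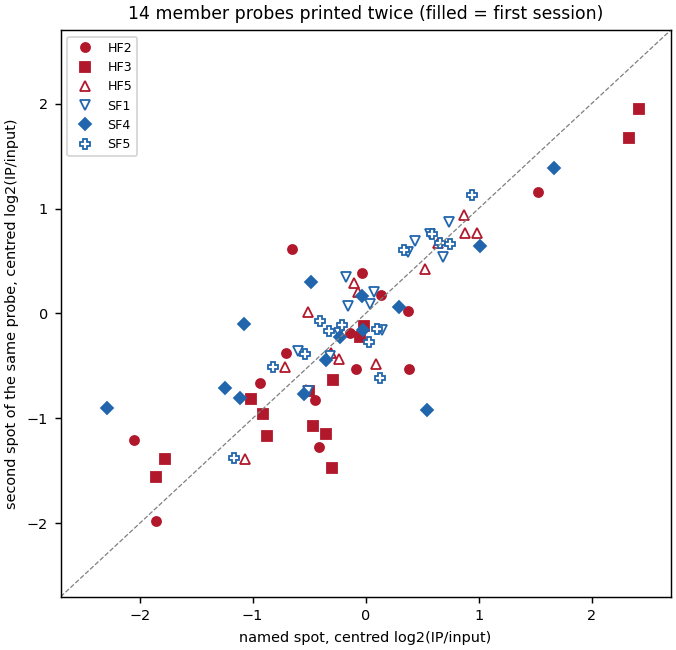
Centred log2(IP/input) of the named spot (horizontal) against that of the second, unnamed spot of the same probe (vertical) for 14 member probes in 6 bulls, filled for the first scan session and open for the later one, with the line of equality. Points of HF2, HF3 and SF4 scatter farther from the line, by medians of 0.29 to 0.37, than the open points of the later session, at 0.20.

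RPL26, a protein at the exit tunnel of the large subunit, was the other region whose groups did not overlap. It read -0.01, 0.19 and -0.23 in high-fertile and -0.26, -0.31 and -0.34 in subfertile bulls, a difference of 0.29 (SE 0.21, 95% interval -0.18 to 0.76). Groups did not overlap in this direction in 1.22% of all regions. With arrays centred on tested probes, with normexp or by the median of probes, the groups of RPL26 overlapped. Of its 3 probes the middle one carried the difference, at 0.85, with values of 1.36, 0.96 and -0.21 against 0.07, -0.84 and 0.31. The others differed by -0.02 and 0.03, and the 26 unnamed probes beside RPL26 by less than 0.01 in size (13 above and 13 below 0).

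The other 5 regions had overlapping groups and intervals that held 0. RPL28, of the large subunit, read -0.48, -0.54 and 0.05 in high-fertile and 0.14, -0.66 and 0.00 in subfertile bulls, a difference of -0.15 (95% interval -0.79 to 0.49, 6 probes). EEF1A2, the elongation factor of muscle and nerve that delivers tRNA to the ribosome, differed by -0.27 (-0.98 to 0.44) and by -0.02 with the session as a block. MRPS12, near the decoding site of the mitochondrial ribosome, differed by 0.14 (-0.67 to 0.96). SF4 alone lay at -1.42 and the other bulls at -0.63 to 0.08. At 1 of its 3 probes IP signal was above background in none of the high-fertile bulls. Its probes with a second spot read -2.29 and -1.11 in SF4 at the named spots and -0.90 and -0.81 at the second ones. The difference between the groups was 0.44 and 0.40 at those named spots and -0.09 and -0.30 at the second ones. RPL12, at the stalk base of the large subunit, differed by -0.03 (-0.78 to 0.73) and EIF3D, a cap-binding subunit of the same factor as EIF3B, by less than 0.01 (-0.59 to 0.59). These intervals allow differences of more than 0.5 in size in either direction for MRPS12, RPL12 and EIF3D.

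Among members with 1 or 2 tested probes, MRPL24 alone had groups that did not overlap. This protein of the large mitochondrial subunit read -0.26, 0.16 and -0.09 in HF2, HF3 and HF5 and -0.45, -0.39 and -0.53 in SF1, SF4 and SF5, a difference of 0.39 (SE 0.27), and 1.94% of all genes had groups apart in each direction. Its 14 unnamed neighbours read -0.37, 0.07 and -0.27 against -0.38, -0.59 and -0.41, a difference of 0.27 with groups apart. Counted from the first of them, the neighbours start at 0 to 162 bp and the named probes at 31 and 156 bp. The neighbours thus overlap the named probes, and their match is in part the same sequence read again. The neighbours differed by 0.44 within the first session and 0.12 within the later one, by 0.14 without HF3 and by 0.038 with normexp. The difference of the named MRPL24 probes was 0.33 within the first session and 0.39 within the later one, led by the probe at chr3:15514786-15514845 (0.50, 0.53 and 0.38 against -0.10, -0.19 and -0.08). A probe of MRPL2, of the same subunit, also lay higher in every high-fertile bull (0.78, 0.76 and 0.30 against -0.04, 0.05 and 0.04), while its other probe differed by -0.56, the other way, with groups that overlapped. Of the 102 member probes 2 were apart upward and 4 downward, beside 2.58% and 3.2% of all probes.

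MRPL46, also of the large mitochondrial subunit, differed between its named and unnamed probes. Its tested probe read 0.38, -0.90 and -0.07 in high-fertile and -0.16, 1.01 and 0.10 in subfertile bulls, a difference of -0.52. The 5 unnamed probes within 1000 bp averaged 0.46, 0.00 and 0.53 against -0.33, -0.03 and -0.43. Counted from the start of the named probe, they start at 0, 20, 24, 36 and 169 bp. The one at 0 bp is a second spot of the named probe, and only the one at 169 bp does not overlap it. The mean of the 5 differed by 0.59 (SE 0.23, limma adjusted p = 0.999, unadjusted p = 0.031), and by 0.22 with normexp. Unnamed probes gave a value for 42 of the members, and groups were apart upward in 2 of them (MRPL24 and MRPL46) and downward in none, beside 0.592% and 1.46% of the 2195 genes with such a value. By these probes limma called 0 of the 42 members (0.0% of 2195), and 1 had an unadjusted p under 0.05, MRPL46, beside 0.501%, also with the session as a block, beside 1.28%. At those 5 probes SF5 had IP and input signals of -1.97 and -1.75 (log2 over the array median), the lowest of the 6 bulls in each channel.

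Within the later session alone, where HF5 stands against SF1 and SF5, limma called 1 member gene of 64 beside 2.22% of all genes, 0 of 8 member regions beside 0.543% and 0 of 102 member probes beside 0.0307%. It was MRPL23, of the large mitochondrial subunit, named for this call after its values were seen. Its single tested probe, on chromosome 29, read 0.92 in HF5 and -0.79 and -0.16 in SF1 and SF5, a difference of 1.40 (adjusted p = 0.020). In the first session it read -1.23, 0.40 and -0.44 in HF2, HF3 and SF4, a difference of 0.02. The same fit called the unnamed probes beside MRPL46 (0.91, adjusted p = 0.00064), 1 of 42 beside 0.228% of all genes, where the first session had 0.26. These fits take the spread of the lone high-fertile bull to equal that of the others.

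The translation genes parted by scan session, in the share that all genes did. In a limma model that also held fertility, 13 of the 64 members were called between sessions, 20.3%, beside 20.1% of the 4286 genes. Of the 13, 7 were higher on the later dates (beside 7.3% of all genes) and 6 lower (beside 12.8%). Among the higher ones were MRPS30, EIF6, RPL36, MRPL15 and MRPL34, by 1.04 to 1.26. The lower ones were MRPL35, MRPL47, RPS26, EIF3E, MRPS17 and RPS6, with differences of -1.64 to -1.07.

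EIF6, which keeps the large subunit apart from the small one, read -0.45, -0.47 and -0.54 in the first session and 0.88, 0.37 and 0.34 in the later one (1.12, SE 0.23, limma adjusted p = 0.022), and the sessions did not overlap. RPS26, of the small cytosolic subunit, ran the other way: 0.82, 1.63 and 0.69 in HF2, HF3 and SF4 and -0.49, -0.29 and -0.36 in HF5, SF1 and SF5 (-1.37, SE 0.32, adjusted p = 0.029). EIF3E, a subunit of the same initiation factor as EIF3B, read 0.76, 1.24 and 0.96 and then -0.41, -0.19 and -0.04 (-1.24, SE 0.25, adjusted p = 0.021).

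Unnamed neighbours parted the same way. Of the 8 called members with such a value, 7 were also called there in the same direction. At EIF6 the 5 neighbours differed by 1.67, at RPS26 the 13 neighbours by -1.34 and at EIF3E the 24 neighbours by -1.08. Over 42 members the session difference of the named probes and that of the unnamed ones correlated at 0.85 (same sign in 37). The group difference correlated at 0.54 (same sign in 27), and with the session as a block at 0.13 (same sign in 23). These are correlations across genes of the same 6 arrays, they include second spots of the same probes, and genes are no independent replicates. Unnamed probes can also overlap the named one, as at RPS26, where they start at 372 and 376 bp and the named probe at 375 bp. The match in calls and in correlation is thus in part the same sequence read again. Unnamed probes were called between sessions at 21 of 42 members (18 higher, 3 lower) beside 40.9% of all genes (38.8% higher, 2.14% lower). With arrays centred on tested probes that count was 12 (9 higher, 3 lower) beside 20.9% (16.4% higher, 4.56% lower).

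The count of session calls depended on the centring. Over tested probes the later arrays lay 0.24 above the first ones. With that centring 11 members were called by their named probes beside 24.4% of all genes, 4 higher (beside 3.99% of all genes) and 7 lower (beside 20.4%). Of the 13, 3 were no longer called, among them MRPL15 (1.04 to 0.80, limma adjusted p = 0.058) and MRPL34 (1.26 to 1.02, adjusted p = 0.068), in the same direction, and RPS4Y1 was added on the lower side. Of the 8 member regions, EEF1A2 (0.75) and RPL28 (0.64) were called higher on the later dates, beside 20.8% of all regions (14.0% higher, 6.78% lower). With that centring they were 0.51 and 0.40 and not called (limma adjusted p = 0.097 and 0.134), and 0 member regions were called beside 14.7% (3.53% higher, 11.1% lower).

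**Figure D4:**
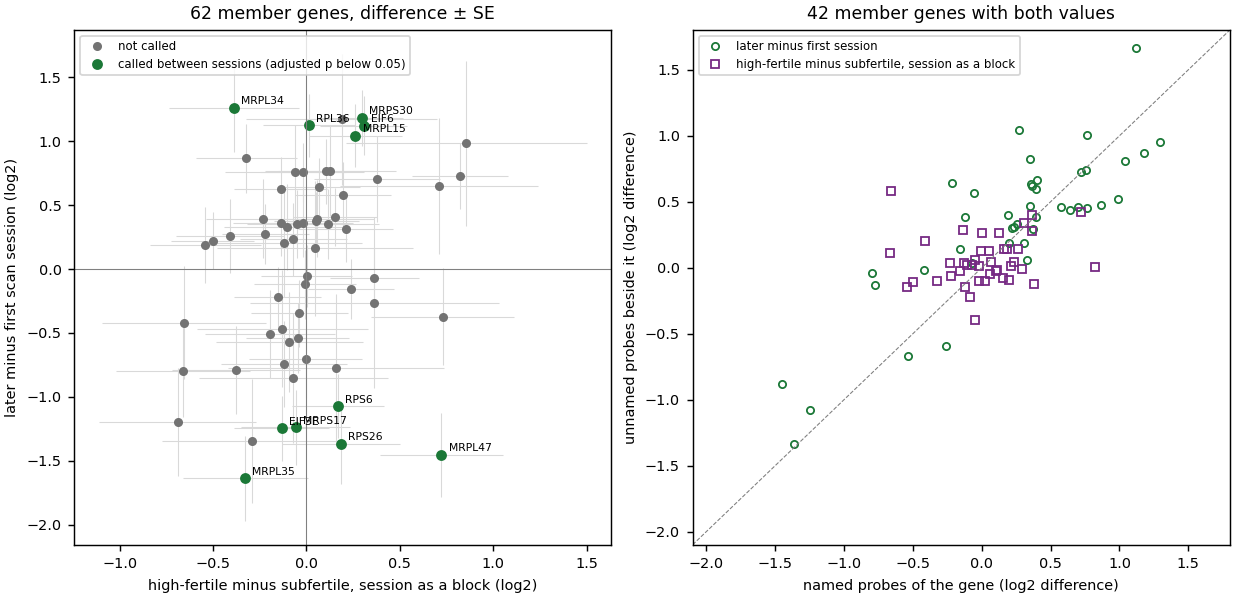
Left, the difference between the fertility groups with session in the model (horizontal, log2, high-fertile minus subfertile) against that between later and first scan session (vertical, log2) for 62 members, with SE bars and, in green, 11 called between sessions. Right, both differences for 42 members from named (horizontal) and from unnamed neighbouring probes (vertical), with the line of equality dashed, where the session differences correlate at 0.85 and the blocked group differences at 0.13 (0.54 without the block).

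The number of CpGs in a probe moved with these values. The 39 member probes with 4 or more CpGs had medians of -0.59, -0.57 and -0.62 in HF2, HF3 and SF4 and of -0.21, -0.16 and -0.22 in HF5, SF1 and SF5. The 28 with at most 1 CpG had medians of -0.06, 0.17 and 0.30 in the first session and -0.33, -0.19 and -0.35 in the later one. So of these 2 classes the one with more CpGs had the lower median in each bull of the first session and the higher one in each bull of the later session. The 35 member probes with 2 or 3 CpGs had session medians of -0.40 and 0.05, the later one above both. Over all tested probes of the array there was no such turn: the class with 4 or more CpGs was the lower in every bull, with session medians of -0.40 and -0.10 against -0.13 and -0.05. The 1766 named probes with 4 or more CpGs had session medians of -0.44 and -0.08, and the 2432 with at most 1 CpG had 0.11 and -0.35. The 7 members called higher on the later dates have 3 to 6 CpGs in their tested probes (median 4.5) and the 6 called lower have 0 to 5 (median 1.5). The part of CpG number in the session difference was not tested.

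Other genes of translation, taken from a list of 162 names for tRNA synthetases, release and recycling factors, mitochondrial translation factors, ribosome biogenesis and growth control, were measured in the same way. Of 84 on the array 53 were measured, with a median level of -0.24 and a median group difference of -0.07. limma called none between fertility groups, and groups were apart upward at TARS2, the mitochondrial threonyl-tRNA synthetase (difference 1.18), and downward at GLE1, an mRNA export factor (-0.40), beside 1.94% of all genes in each direction. Between sessions 3 were called higher (AARS, PES1 and QARS) and 5 lower (HARS, NARS2, NOP14, NOP16 and RARS), beside 7.3% and 12.8% of all genes. Among the lower ones NARS2, a mitochondrial synthetase, read 1.44, 2.26 and 2.15 in HF2, HF3 and SF4 and -1.21, -0.68 and -0.63 in HF5, SF1 and SF5.

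Without the filter on dim signal the groups did not overlap at 4 of the 123 members. These were MRPL15, MRPL51, MRPS16 and RPS14, all higher in high-fertile bulls, beside 3.35% of all genes in that direction and 1.2% in the other. Without the filter 70.8% of all genes and 84 of the 123 members lay above 0 in the difference. With the session as a block these were 49.2% and 53. By limma 3 of the 123 had an unadjusted p under 0.05 beside 1.66%, and with that block 7 beside 3.64%. MRPS16, a protein of the small mitochondrial subunit, read 2.25, 2.50 and 1.76 in high-fertile and 0.09, 1.495 and 0.89 in subfertile bulls at 1 probe. Its input was well above background on 0 of 6 arrays and its IP signal on 0 of 6. MRPL51, of the large mitochondrial subunit, read 1.84, 1.35 and 1.77 against -0.09, 0.18 and 0.96, with the input above background on 1 array and the IP signal on 0. RPS14, of the small cytosolic subunit, read -0.19 to 1.03 in high-fertile bulls against -1.19 to -0.22, with the input above background on 4 arrays. limma called none of these 4 after adjustment.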

How the data were processed

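The deposited scanner files give linear spot intensities, made per the file headers with Agilent Feature Extraction 10.7.3.1 (background subtraction, detrending, linear dye normalization). The header of SF1 names that software's CGH protocol and the others its ChIP protocol. The deposited log10 ratios divide red (IP) by green (input), and the deposited series table holds them on the log2 scale, uncentred (column medians -0.045 to 0), for all probes but 1. No dyes were swapped. Gene names stand in 3 of the 6 files (HF2, HF3 and SF4); probe names and sequences are the same in all, so names were taken from those. Of the 123 member names, 115 were found in a RefSeq gene table (assembly NDDB_SH_1, used for names only).

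log2(IP/input) from processed signals was centred on each array's median over 177440 non-control probes. Genes are means of tested probes. Groups, with n the number of bulls, were set against each other by lmFit and eBayes of limma 3.58.1, run in R 4.3.3 (2-sided, Benjamini-Hochberg over all features, threshold 0.05), checked on simulated data. The mean of at least 3 unnamed tested probes within 1000 bp of a gene's tested probes was added after the data were seen, as was the session fit for single genes. Alternatives were normexp (offset 50), centring on tested probes, the deposited ratio, no filter, IP above background on all arrays, medians of probes, session and slide as blocks, each session alone, and leaving out each bull. Named are all 8 regions, up to 8 genes and 5 probes per direction with groups apart, 6 levels at each end and 6 session differences per direction. The members and lists were chosen with earlier results of these data known. Counts over the members include 2 genes whose own values are not reported here. Plots were drawn with matplotlib 3.10.9. The number of arrays limits the precision.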

Additional observations from a re-analysis of the deposited data

How the results depend on the processing

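Under the alternatives run, no member difference between fertility groups passed the adjusted threshold except MRPL23 and the probes beside MRPL46 within the later session. That session alone called 4 regions, 95 genes, 34 probes and 5 genes by unnamed probes, against 0 of each with all bulls. Between sessions, normexp called 290 regions in place of 153, and centring on tested probes called 459 genes by unnamed probes in place of 898. With that centring the session differences of EIF3B and RPS18, not called, turned to -0.019 and -0.050. Of 122 alternative values of the 8 region differences 102 kept their direction and 20 turned, none of them called. EEF1A2 turned from -0.27 to 0.0056 within the first session. EIF3D turned to 0.11 with the session block, 0.19 and 0.036 within the first and later sessions, 0.071 with tested-probe centring and 0.017 with medians, and ran from -0.15 to 0.22 without each bull. MRPS12 turned to -0.21 within the later session and ran from -0.28 (without SF4) to 0.47. RPL12 turned to 0.38 within the first session, 0.052 with normexp, 0.048 with tested-probe centring and 0.28 with medians, and ran from -0.36 to 0.33. RPL28 turned to 0.066 with the session block and 0.15 within the first session, and ran from -0.39 to 0.0078. EIF3B, RPS18 and RPL26 kept their direction throughout, the last at 0.087 with normexp. No member region had groups apart with normexp. Of 24 alternative levels 6 moved by more than 1 SD over bulls, among them MRPS11, at 0.10 without the filter. The cause of these changes was not tested. No paired analysis was possible because the groups share a single bull number. Where IP signal did not clear background, low values are upper bounds.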

Other observations

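The 59 members with no tested probe include EEF2, RPLP0, RPL3, EIF4E and EIF2S1, central parts of the translation machinery. The 81 probes of these 59 genes hold 1.21 CpGs on average, and the 102 tested member probes 2.84. Without the filter the 59 genes had a median level of 0.58, with values from -0.61 to 1.503, against a tested-member median of -0.25. At 61 of the 81 probes the input was well above background on at most 3 of the 6 arrays.

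The probes named MRPL23 lie on chromosomes 10 and 29 in the files, and the other 122 member names each lie on 1 chromosome.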
